A study of Mus musculus with 20 samples.

Results

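Cadherins, the nonclustered protocadherins and the catenins were examined in cultured mouse hippocampal neurons after a brief glutamate stimulus given at different zinc levels. The set holds the genes whose symbol is Cdh followed by digits, those whose symbol is Pcdh followed directly by a digit, and Jup, Ctnnb1, Ctnna1, Ctnna2, Ctnnd1 and Ctnnd2. These were 41 of the 24419 genes counted. They comprised 5 type I and 13 type II classical cadherins, 5 other cadherins, 4 δ1 protocadherins, 5 δ2 protocadherins, 3 other protocadherins and 6 catenins.

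All cultures came from C57BL6 embryos at embryonic day 18, with tissue pooled from 4 embryos, and all had been given 4 µM cytosine arabinoside, which kills dividing cells. On day 10 in vitro they received for 2 min either medium alone (the medium group), 50 µM glutamate (the glutamate group), 50 µM glutamate with 10 µM ZnCl2 (the zinc group) or 50 µM glutamate with 10 µM TPA (the TPA group). TPA, tris(2-pyridylmethyl)amine, is a chelator of zinc ions and was also present for 1 min beforehand. Polyadenylated RNA was collected after a further 90 min, with 5 libraries in each group. No group used here had zinc or TPA in the absence of glutamate. Because the tissue was pooled, a p-value here reflects the spread among these libraries and not among animals.

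Classical cadherins are calcium-dependent adhesion proteins that bind their like across the cell junction and, in neurons, across the synapse. Inside the cell they hold β-catenin (Ctnnb1) or its close relative plakoglobin (Jup), which recruit α-catenins and through them actin, while the catenins Ctnnd1 and Ctnnd2 bind nearer the membrane and keep the cadherin in place. β-catenin is also the transcriptional partner of the TCF/LEF factors in Wnt signalling. The nonclustered protocadherins adhere weakly, do not bind β-catenin and mark particular groups of neurons and their connections in the developing brain.

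Library totals ran from 28692470 to 40934630 counts. Summed TPM (a transcript level scaled for gene length and library size) of 4 pan-neuronal markers lay between 3460 and 3972 per library, against 129 to 186 for 6 astrocyte markers, 2.99 to 5.73 for 5 microglial markers and 1.97 to 3.48 for 5 endothelial markers. Replicates 4 and 5 of the glutamate group and replicate 5 of the zinc group lay farthest from their group means over all genes, at a root mean square log2 distance of 0.239 to 0.249. The other 17 libraries lay between 0.150 and 0.217. In bulk RNA, fewer cells of a type and less RNA per cell cannot be told apart.

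β-catenin, N-cadherin and the protocadherin Pcdh8 led their classes in these cultures, and 33 of the 41 genes had a median of at least 1 TPM over the 20 libraries. Ctnnb1 was the most abundant of the set at a median of 565 TPM (512 to 604). It made up 59.5% of catenin TPM. The neural α-catenin Ctnna2 (128 TPM) stood 15.2 times above the widely expressed Ctnna1 (8.42 TPM), and the neural catenin Ctnnd2 (141 TPM) stood 2.31 times above Ctnnd1 (59.8 TPM). Jup, at 46.4 TPM, was present at 8.36 per 100 TPM of Ctnnb1.

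Among the classical cadherins, N-cadherin (Cdh2) had a median of 188 TPM and made up 43.0% of their summed TPM (40.5% to 45.4% per library). Type II cadherins shared most of the rest. Cdh11 stood at 55.1 TPM, Cdh10 at 48.5, Cdh8 at 30.5, Cdh20 at 25.0, Cdh9 at 23.3, Cdh22 at 15.1, Cdh12 at 12.5, Cdh24 at 11.1 and Cdh18 at 8.78. Cdh7 and Cdh6 were lower, at 4.25 and 3.99 TPM, and the type I gene Cdh4 (R-cadherin) stood at 10.5 TPM.

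The GPI-anchored T-cadherin, Cdh13, was as abundant as Cdh2 at a median of 188 TPM. Cadherins that define other tissues were near 0. E-cadherin (Cdh1), P-cadherin (Cdh3), the endothelial Cdh5, the kidney gene Cdh16, Cdh19, Cdh26 and Pcdh12 had 0 to 13 counts in any library and did not pass the expression filter. The 3 epithelial markers summed to at most 0.584 TPM, beside those low levels of Cdh1. The muscle cadherin Cdh15 was detected at 1.35 TPM and the intestinal Cdh17 at 0.270 TPM.

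Pcdh8, a δ2 protocadherin known to be induced by neuronal activity and to drive the internalisation of N-cadherin, led the protocadherins at 232 TPM, 30.8% of their summed TPM. Pcdh1 followed at 110 TPM, Pcdh17 at 97.4, Pcdh9 at 86.0 and the X-linked Pcdh11x at 58.4. Pcdh19, an X-linked gene mutated in an epilepsy, stood at 43.8 TPM, Pcdh20 at 43.3, Pcdh7 at 38.4 and Pcdh10 at 33.4. The hair cell tip-link pair Pcdh15 and Cdh23 stood at 3.80 and 1.45 TPM.

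**Figure D1:**
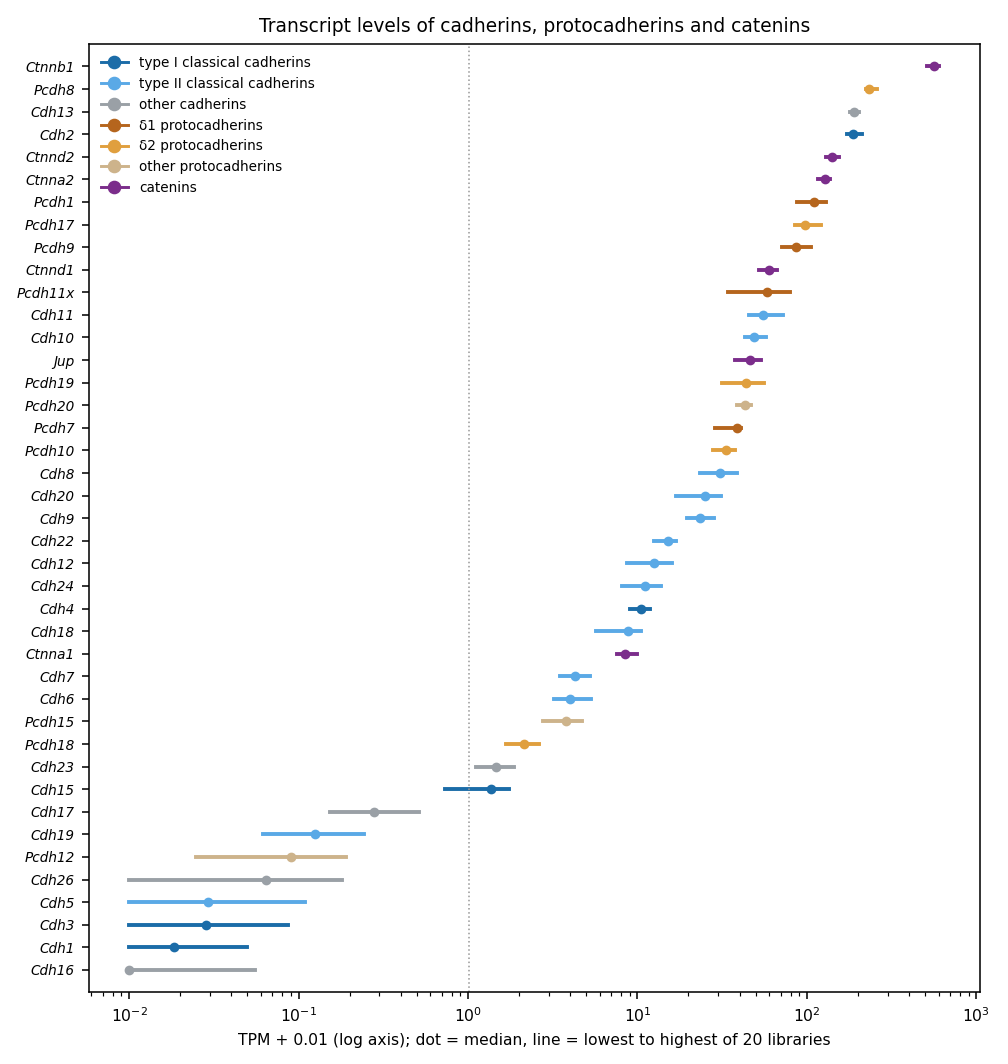
Median TPM (dots) and the range over the 20 libraries (lines) of the 41 genes, on a log axis after adding 0.01, coloured by class. Ctnnb1 stands highest at 565 TPM, 33 genes reach the dotted line at 1 TPM, and the 7 genes at the foot did not pass the expression filter.

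In the edgeR fit of 4 group means over all 20 libraries, chelated against added zinc gave the only calls in the set. Jup and Cdh24 stood 1.24-fold and 1.30-fold higher in the TPA group than in the zinc group. The other 32 tested genes did not pass the threshold. The 34 genes that passed the filter were tested with edgeR's quasi-likelihood test, with Benjamini-Hochberg adjustment over all 14411 tested genes and a threshold of 0.05. The 2 calls compare with 0.513% of all tested genes called, made up of 0.354% called higher in the TPA group and 0.160% called lower, where 0 members were. Levels of single genes between libraries are given below in CPM, the read counts after division by TMM-adjusted library sizes, which is not comparable between genes.

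Jup encodes plakoglobin, which serves both in cadherin junctions and in desmosomes. In replicates 1 to 5 of the TPA group Jup stood at 83.3, 85.5, 85.2, 84.6 and 88.3 CPM. In the zinc group it stood at 70.8, 62.0, 62.6, 75.5 and 74.3 CPM. Every TPA library was above every zinc library, and the zinc libraries were the more scattered. The means were 85.4 ± 1.82 and 69.0 ± 6.39 CPM (SD, n = 5 each), a log2 fold change of 0.31 (SE 0.06, edgeR adjusted p = 0.0187) or 1.24-fold.

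The other groups lay between or beside these values for Jup. Replicates 1 to 5 of the medium group stood at 78.9, 77.4, 83.6, 78.4 and 86.8 CPM, and those of the glutamate group at 73.3, 66.8, 70.3, 75.3 and 81.3 CPM. Medium (81.0 ± 4.03) overlapped TPA, and glutamate (73.4 ± 5.48) overlapped both medium and zinc. No TPA library overlapped the glutamate group, at a log2 difference of 0.22 (SE 0.06) with an edgeR adjusted p of 0.516. Zinc and medium did not overlap either, at -0.23 (SE 0.06, edgeR adjusted p = 0.157).

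Set against its relative β-catenin, Jup stood at 8.90 ± 0.212 TPM per 100 TPM of Ctnnb1 in the TPA group and at 7.61 ± 0.398 in the zinc group (SD, n = 5 each). The TPA libraries spanned 8.68 to 9.14 and the zinc libraries 7.09 to 8.05, without overlap. The medium group stood at 8.45 ± 0.470 and the glutamate group at 8.20 ± 0.376. Unlike Jup, Ctnnb1 itself overlapped between TPA and zinc, at 660, 678, 703, 705 and 725 CPM against 637, 610, 638, 688 and 707 CPM in replicates 1 to 5. Its log2 difference was 0.08 (SE 0.05, edgeR adjusted p = 0.407).

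Cdh24 encodes a type II cadherin. It stood at 10.3, 12.2, 9.79, 10.6 and 11.2 CPM in replicates 1 to 5 of the TPA group. In the zinc group it stood at 9.46, 8.12, 7.33, 8.21 and 8.49 CPM. The lowest TPA library was just above the highest zinc library. The means were 10.8 ± 0.941 and 8.32 ± 0.769 CPM (SD, n = 5 each), a log2 fold change of 0.38 (SE 0.07, edgeR adjusted p = 0.0228) or 1.30-fold.

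For Cdh24 the zinc group had the lowest mean, 8.32 CPM, against 10.0 with medium, 9.86 with glutamate and 10.8 with TPA. Medium libraries had 10.4, 10.5, 9.10, 9.74 and 10.6 CPM and glutamate libraries 10.2, 8.93, 9.74, 10.2 and 10.3 CPM. Both overlapped the TPA group and, by 1 library each, the zinc group. Zinc differed from medium by -0.27 (SE 0.07, edgeR adjusted p = 0.198) and from glutamate by -0.25 (SE 0.07, edgeR adjusted p = 0.634) on the log2 scale.

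**Figure D2:**
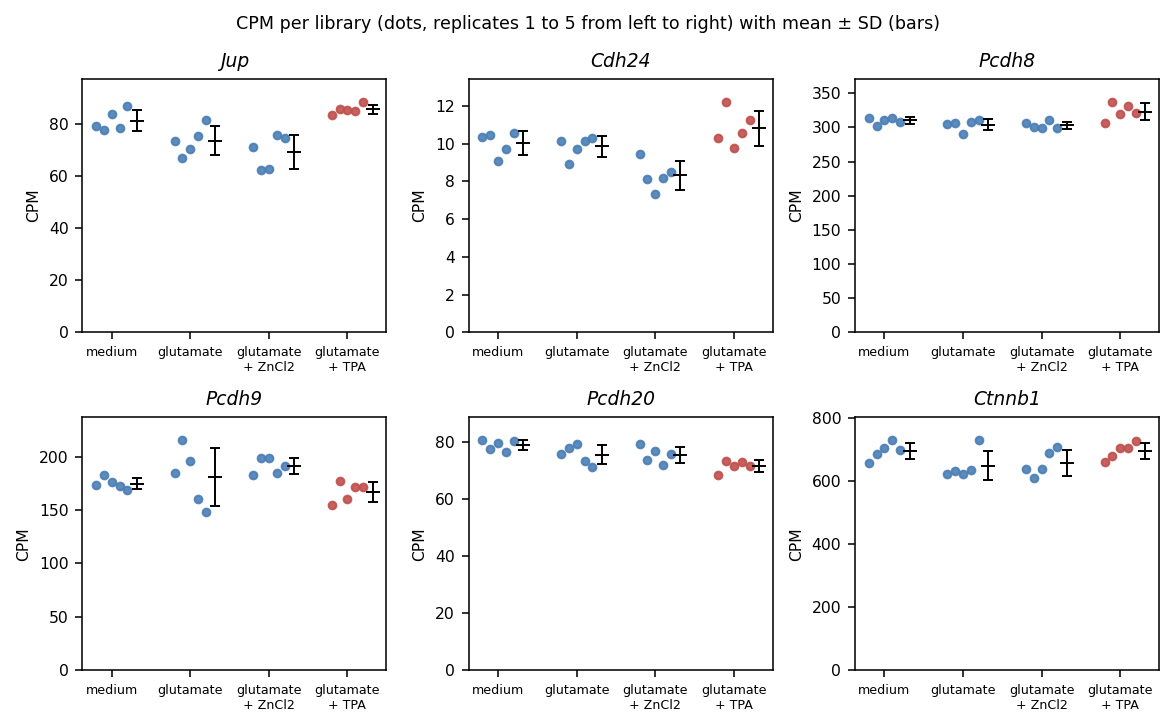
CPM of 6 genes in every library, with the 5 replicates of each group as dots (TPA group in red) and mean ± SD as bars, on axes that start at 0. For Jup and Cdh24 the TPA dots lie above all zinc dots, Pcdh9 shows the reverse order, and Pcdh8, Pcdh20 and Ctnnb1 overlap between those groups.

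Both calls were lost when some single libraries were left out. Without zinc replicate 2, zinc replicate 3 or TPA replicate 5 neither gene passed the threshold, with edgeR adjusted p-values of 0.0536, 0.0861 and 0.0630 for Jup and 0.0593, 0.0926 and 0.0753 for Cdh24, and without TPA replicate 2 Cdh24 stood at 0.0700. The log2 differences were then 0.27, 0.28 and 0.29 for Jup and 0.37, 0.34 and 0.36 for Cdh24, and 0.33 for Cdh24 without TPA replicate 2. The authors' deposited table calls the same pair higher with TPA, Jup at a shrunken log2 fold change of 0.25 (adjusted p = 0.000211) and Cdh24 at 0.26 (adjusted p = 0.000619), together with Pcdh8 at 0.09 (adjusted p = 0.0321), where it calls 3.78% of the genes it gives an adjusted p.

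Jup and Cdh24 are among the GC-rich transcripts of the set. The longest annotated transcript of Cdh24 is 61.2% GC, above 97.3% of tested genes, and that of Jup is 58.8% GC, above 92.6%, where the median tested gene has 49.7%. Over the 34 tested members, the log2 difference between TPA and zinc had a Pearson correlation of 0.66 and a Spearman correlation of 0.66 with transcript GC content, against 0.24 and 0.32 over 13880 tested genes. These are correlations across genes, which share the same 10 libraries and are not independent replicates. All 6 tested members of 58% GC or more (Cdh15, Cdh22, Cdh24, Jup, Pcdh1 and Pcdh8) had a positive difference, with a median of 0.23. Of the 12 under 45% GC, 5 had a positive difference and the median was -0.005.

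The libraries themselves differed in how counts followed GC content. Log2 CPM was taken relative to each gene's mean over the 20 libraries. This relative value changed per 10 points of GC by -0.05, -0.04, -0.07, 0.09 and -0.11 in zinc replicates 1 to 5. In TPA replicates 1 to 5 it changed by 0.08, 0.01, 0.03, 0.03 and -0.01. Medium libraries ranged from -0.02 to 0.02 and glutamate libraries from -0.05 to 0.09. After a within-library correction for GC content, chosen after seeing the data, Jup stood at a log2 difference of 0.25 (edgeR adjusted p = 0.05002, just above the threshold) and Cdh24 at 0.30 (edgeR adjusted p = 0.0749). The correction thus ended both calls and left the direction of both.

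**Figure D3:**
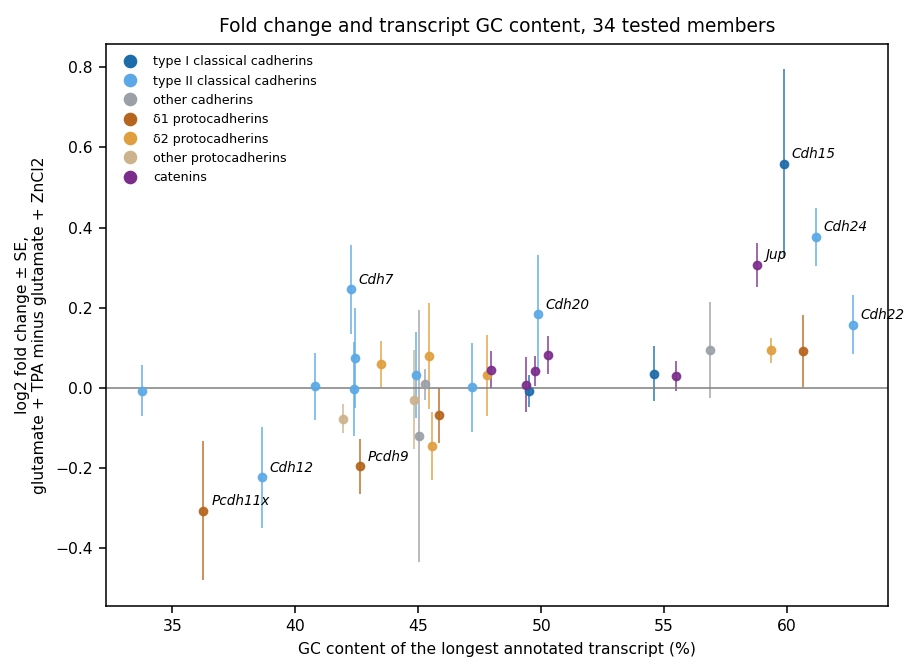
Log2 fold change ± SE between the TPA and zinc groups (vertical axis) against GC content of the longest annotated transcript in percent (horizontal axis) for the 34 tested genes, coloured by class. The 6 genes at 58% GC or more all lie above 0, and Pcdh11x and Cdh12 lie lowest among the GC-poor genes.

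The promoters of the genes called are shown because these are the 2 members past the threshold in a comparison of zinc levels. RefSeq entries (build GRCm38.p6) from 250 bases before to 50 bases after a transcript start were found for 27 of the 41 genes, 32 entries in all. The 250 bases before the start are printed 5′ to 3′ on the gene's strand. Capitals mark the core of the metal response element (TGCACNC or TGCGCNC on either strand), to which the zinc-sensing factor MTF-1 binds, and the GC box (GGGCGG on either strand), to which Sp1 family factors bind. Cdh24 lies at chr14:54631992-54641364 and Jup at chr11:100368856-100397790, both on the minus strand of mm10, and the windows printed are chr14:54641365-54641614 and chr11:100397791-100398040.
Cdh24: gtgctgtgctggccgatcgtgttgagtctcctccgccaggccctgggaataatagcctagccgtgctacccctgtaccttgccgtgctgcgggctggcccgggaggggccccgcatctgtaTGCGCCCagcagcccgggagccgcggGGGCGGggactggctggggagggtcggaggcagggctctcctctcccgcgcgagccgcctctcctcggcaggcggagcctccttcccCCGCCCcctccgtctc
Jup: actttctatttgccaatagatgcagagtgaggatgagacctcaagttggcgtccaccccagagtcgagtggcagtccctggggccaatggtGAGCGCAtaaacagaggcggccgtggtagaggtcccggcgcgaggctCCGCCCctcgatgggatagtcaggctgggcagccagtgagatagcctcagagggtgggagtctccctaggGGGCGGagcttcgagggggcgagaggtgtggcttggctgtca

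Each window held 1 metal response element core and 2 GC boxes. Cores occurred in 25.7% of all 32851 RefSeq promoter windows of 300 bases and in 9 of the 32 windows of the set (28.1%). GC boxes occurred in 35.7% of all windows and in 14 of the 32 (43.8%). The Cdh24 window also held an EGR site (GCGGGGGCG, either strand) that overlaps its first GC box, a motif found in 2.91% of all windows and in 2 of the 32. The CRE (TGACGTCA), the AP-1 site (TGANTCA) and the TCF/LEF site (CTTTGAT) were searched on both strands and were in 0 of the 32 windows, against 1.79%, 7.81% and 3.73% of all windows. Over the full 300 bases the Cdh24 window was 73.3% GC with 30 CpG and the Jup window 60.7% GC with 14 CpG, where the median of all windows was 52.7%. A match describes these letters only.

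The other 4 catenins differed little between chelated and added zinc. Ctnna2 stood at 180, 170.4, 180.1, 178 and 176 CPM in TPA replicates 1 to 5 and at 167, 167, 173, 175 and 178 CPM in zinc replicates, with overlap. Ctnna1, the widely expressed α-catenin, stood at 10.6 ± 0.592 against 10.6 ± 1.16 CPM (SD, n = 5 each). Ctnnd1 stood at 111 ± 3.82 against 107 ± 1.81 CPM, and Ctnnd2 at 279.7 ± 6.83 against 274 ± 12.5 CPM. Their log2 differences were 0.04, 0.01, 0.05 and 0.03 in that order, with SE of 0.04 to 0.07 and edgeR adjusted p-values of 0.609 to 0.968.

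Across the 34 tested members, 23 differences between TPA and zinc were positive and 11 negative, with a median of 0.03 against -0.00114 over all tested genes. At an unadjusted p under 0.05 there were 8 members, where 16.0% of all genes had such a p. Groups that did not overlap were found for 3 members (Jup, Cdh24 and Pcdh9), where 3.13% of all genes did not overlap.

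Of the 4 δ1 protocadherins 3 had a negative difference, with a median of -0.13, and 0 passed the threshold. Transcript GC content was 60.7% for Pcdh1, the positive one, and 36.3% to 45.8% for the others. The part of GC content in this split was not tested. Pcdh9 stood at 155, 177, 160.0, 171 and 171 CPM in TPA replicates 1 to 5 and at 182, 199, 199, 185 and 191 CPM in zinc replicates. All zinc libraries were above all TPA libraries, but the log2 difference of -0.20 (SE 0.07) had an edgeR adjusted p of 0.163. Pcdh11x, its X-linked relative, had the lowest difference of the tested members at -0.31 and was named after its value was seen.

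Among the δ2 protocadherins 4 of 5 differences were positive. Pcdh8 stood at 307, 337, 319, 332 and 321 CPM in TPA replicates 1 to 5 and at 306, 299.9, 299, 311 and 299 CPM in zinc replicates. The TPA libraries lay mostly higher with overlap at TPA replicate 1, and the log2 difference was 0.09 (SE 0.03, edgeR adjusted p = 0.140). DESeq2 called it where edgeR did not, at 0.09 (DESeq2 adjusted p = 0.0318). As a share of protocadherin TPM, Pcdh8 stood at 31.9% to 33.8% in the TPA group and 29.3% to 30.9% in the zinc group, without overlap. Unlike the CPM, this share also depends on the levels of the other protocadherins, and it was not tested. The glutamate group spanned 28.4% to 33.8%, overlapping both, and the medium group 30.1% to 31.7%. Pcdh17 stood at 295.5 ± 20.3 against 326 ± 23.1 CPM (SD, n = 5 each), a log2 difference of -0.14 (SE 0.08, edgeR adjusted p = 0.420).

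The type I cadherin Cdh15, named after its values were seen, had the highest difference of the 34 tested members. It stood at 1.21, 1.44, 1.60, 1.50 and 1.41 CPM in TPA replicates 1 to 5 and at 0.71, 0.69, 0.69, 1.22 and 1.60 CPM in zinc replicates. Zinc replicates 1 to 3 were low and replicate 5 stood level with the highest TPA library, so the groups overlapped. The log2 difference was 0.56 (SE 0.23, edgeR adjusted p = 0.236). Without glutamate replicates 4 and 5 and zinc replicate 5 it was 0.79 (edgeR adjusted p = 0.0237). That setting, added after seeing the data, left out libraries for their distance from their group means, which narrows the spread within groups. It reran the expression filter and called 1149 genes, against 74 with every library.

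The most abundant cadherins were level between these groups. Cdh2 stood at 293 ± 6.12 CPM with TPA and 295 ± 20.2 CPM with zinc, and Cdh13 at 144 ± 5.90 and 143 ± 4.79 CPM (SD, n = 5 each). Their log2 differences were -0.01 (SE 0.04, edgeR adjusted p = 0.946) and 0.01 (SE 0.04, edgeR adjusted p = 0.929). Pcdh1 stood at 143 ± 13.8 and 134 ± 22.3 CPM, a log2 difference of 0.09 (SE 0.09, edgeR adjusted p = 0.655).

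Cell type markers were read beside these values. None of the 12 marker lists had summed TPM that separated the TPA from the zinc libraries. Excitatory markers (4 of 4 tested) summed to 1012 to 1140 TPM with TPA and 978 to 1224 with zinc, GABAergic markers (5 of 5 tested) to 1934 to 2460 and 1689 to 2270, and astrocyte markers (6 of 6 tested) to 150.0 to 179 and 138 to 180.1. The part of cell composition in the Jup and Cdh24 differences was not tested.

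**Figure D4:**
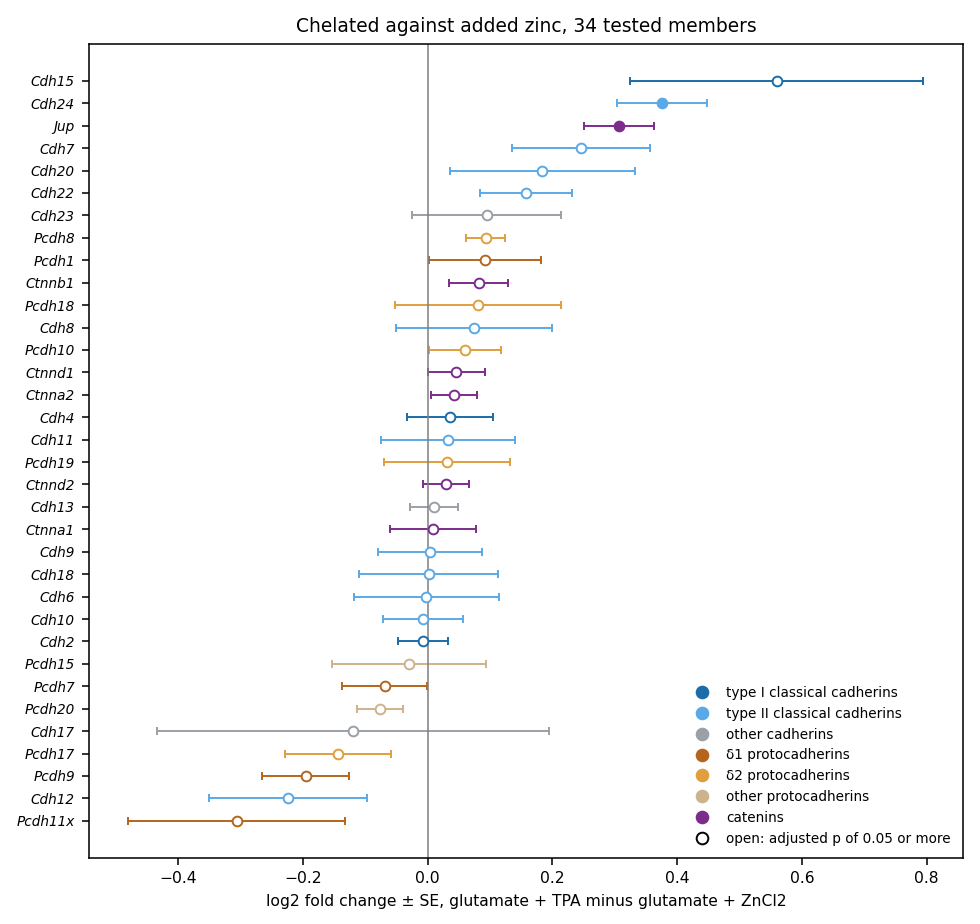
Log2 fold change ± SE of the 34 tested genes between the TPA and zinc groups, ordered by value and coloured by class, with filled dots for an edgeR adjusted p under 0.05. Jup (0.31) and Cdh24 (0.38) are the filled dots, and Cdh15 lies higher at 0.56 with an SE of 0.23.

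Glutamate alone against medium gave 0 members past the threshold by edgeR, where 0.0208% of all tested genes were called. At an unadjusted p under 0.05 there were 4 members, against 4.98% of all genes. No member had groups without overlap, against 0.985% of all genes. DESeq2 and the authors' deposited table, which calls 0.0545% of genes, also called 0 members. The difference with the smallest p was that of Jup, at -0.14 (SE 0.06, edgeR adjusted p = 0.950). Next came Cdh6, a type II cadherin, at 4.38, 3.92, 4.50, 3.07 and 4.45 CPM with glutamate and 3.71, 3.49, 3.20, 3.49 and 3.04 CPM with medium, a log2 difference of 0.26 (SE 0.11, edgeR adjusted p = 0.950) with overlap at glutamate replicate 4.

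The activity-induced Pcdh8 was among the genes that did not differ detectably after glutamate. It stood at 305, 306, 290.0, 307 and 311 CPM with glutamate and at 314, 303, 311, 315 and 308 CPM with medium. The groups overlapped, and the log2 difference was -0.03 (SE 0.03, edgeR adjusted p = 0.983). Ctnnb1 stood at 621, 631, 620.4, 635 and 729 CPM with glutamate and 656, 684, 704, 728 and 698 CPM with medium. All glutamate libraries but replicate 5 were below the medium libraries, and the log2 difference was -0.10 (SE 0.05, edgeR adjusted p = 0.950). Over all 34 tested members 11 differences were positive and 23 negative, with a median of -0.03 against -0.00197 over all genes.

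Adding zinc to glutamate gave 0 members past the threshold by edgeR, and 0% of all genes were called. At an unadjusted p under 0.05 there was 1 member, Cdh24, against 5.98% of all genes, and DESeq2 called 0 members. No member had groups without overlap, against 0.701% of all genes. The differences were split evenly, 17 positive and 17 negative. After Cdh24, whose values are given above, the smallest p was that of Cdh6, at 2.99, 4.09, 2.82, 3.84 and 3.88 CPM with zinc, a log2 difference from glutamate of -0.21 (SE 0.11, edgeR adjusted p = 0.862).

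Chelating zinc during glutamate likewise gave 0 members past the threshold by edgeR, and 0% of all genes were called. At an unadjusted p under 0.05 there were 4 members (Jup, Pcdh8, Ctnnb1 and Pcdh20), against 7.15% of all genes, and DESeq2 called 0 members. The log2 differences were 0.22 for Jup, 0.09 for Pcdh8, 0.10 for Ctnnb1 and -0.08 for Pcdh20. Of the 34 differences 24 were positive and 10 negative, with a median of 0.04 against 0.00247 over all genes. Jup was the 1 member whose groups did not overlap, where 1.03% of all genes did not. The glutamate libraries also serve in the comparisons with medium and with zinc, so these differences share samples.

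When the 3 outlying libraries named above were left out, an alternative added after seeing the data, 4 members passed the threshold between TPA and glutamate. Jup (0.28, edgeR adjusted p = 0.0117) and Ctnnb1 (0.15, edgeR adjusted p = 0.0423) then stood higher with TPA than with glutamate, and Pcdh17 (-0.33, edgeR adjusted p = 0.00747) and Pcdh9 (-0.25, edgeR adjusted p = 0.0117) lower. The same setting called 551 genes in this comparison, against 0 with every library, and it left 3 glutamate libraries. The libraries were left out for their distance from their group means, which by itself narrows the spread and tends to lower p-values. Pcdh17 also stood higher with glutamate than with medium there, at 0.27 (edgeR adjusted p = 0.0403).

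Glutamate with zinc against medium gave 0 members past the threshold by edgeR, where 0.0416% of all genes were called. At an unadjusted p under 0.05 there were 3 members (Jup, Cdh24 and Cdh15), against 11.1% of all genes. Jup was the 1 member whose groups did not overlap, where 2.66% of all genes did not. DESeq2 called 1 member, Jup, at -0.23 (DESeq2 adjusted p = 0.0269). The authors' deposited table, which calls 0.561% of genes here, has Jup lower at a shrunken log2 fold change of -0.19 (adjusted p = 0.0241), and gives Cdh24 at -0.19 (adjusted p = 0.0608). In the set 14 differences were positive and 20 negative, with a median of -0.03 against 0.00157 over all genes.

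Glutamate with TPA against medium gave 0 members past the threshold by edgeR, where 0.0694% of all genes were called, and DESeq2 also called 0 members. At an unadjusted p under 0.05 there was 1 member, against 3.09% of all genes. It was Pcdh20, a protocadherin of the brain, at 68.3, 73.2, 71.4, 73.1 and 71.6 CPM with TPA and 80.6, 77.5, 79.4, 76.6 and 80.3 CPM with medium. All TPA libraries were below all medium libraries, at a log2 difference of -0.14 (SE 0.04, edgeR adjusted p = 0.771), where 1.33% of all genes did not overlap. The next smallest p was that of Pcdh8, at 0.06 (SE 0.03, edgeR adjusted p = 1.000). Jup and Cdh24 stood 0.08 and 0.10 above medium on the log2 scale (SE 0.06 and 0.07), each with an edgeR adjusted p of 1.000.

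Related genes from 4 further lists gave 0 calls by edgeR in any of the 6 comparisons. Between TPA and zinc 3, 3, 2 and 2 of them, in the order below, had an unadjusted p under 0.05, where 16.0% of all genes did. Of 18 tested genes of the wider cadherin superfamily (desmosomal cadherins, Fat, Dachsous and Celsr genes), 13 differences between TPA and zinc were positive and 5 negative, and the smallest p was that of Celsr3, a seven-pass cadherin, at 0.19 (SE 0.07, edgeR adjusted p = 0.165). Of 25 tested junction partners 14 were positive and 11 negative, led by vinculin (Vcl) at 0.15 (SE 0.06, edgeR adjusted p = 0.187). Of 18 genes of cadherin cleavage and β-catenin destruction 12 were positive and 6 negative, led by Apc2 at 0.20 (SE 0.07, edgeR adjusted p = 0.155). Of 16 tested TCF/LEF factors and targets 6 were positive and 10 negative. The smallest p there was that of the β-catenin co-activator Bcl9l, at 0.25 (SE 0.07, edgeR adjusted p = 0.0779). The TCF/LEF target Myc had the smallest p of that list after glutamate, at 0.25 over medium (SE 0.06, edgeR adjusted p = 0.280).

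Spread between replicates differed widely within the set. The pooled within-group SD of log2 CPM ran from 0.04 for Pcdh8 to 0.53 for the scarce Cdh17, with a median of 0.13 against 0.11 over all tested genes. Pcdh20, Ctnna2, Ctnnd2, Cdh13 and Cdh2 also varied little, at 0.05 to 0.06, while Cdh20 stood at 0.25 and Pcdh11x at 0.30. Glutamate replicate 5 was the highest of its group for 18 of the 34 members, glutamate replicate 4 the lowest for 18, and TPA replicate 1 the lowest for 20. Over all tested genes those libraries held these places for 24.7%, 28.6% and 29.8%.

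Of the 11 tested type II cadherins, Cdh8, Cdh11 and Cdh20 deviated from their group means together most closely, library by library. Over the 20 libraries the deviations of Cdh11 and Cdh20 had a Pearson correlation of 0.97, those of Cdh8 and Cdh11 0.95 and those of Cdh20 and Ctnnb1 0.92, while Cdh20 and Pcdh11x stood at -0.88. Other type II genes followed them to unlike degrees. Cdh9 had a correlation of 0.89 with Cdh20, 0.87 with Cdh11 and 0.85 with Cdh8, and Cdh10 had 0.83 with Cdh8. Against the deviations of Ctnnb1, Cdh20 had a correlation of 0.92, Cdh22 0.78, Cdh9 0.74 and Cdh10 0.67. Cdh7 had 0.26 there, Cdh6 0.13, Cdh24 0.05, Cdh12 -0.07 and Cdh18 -0.69. The median over all 561 pairs of tested members was 0.15. These correlations describe deviations that share library and depth, and the genes were named after their values were seen. Cdh20 stood at 25.9, 23.3, 27.0, 23.7 and 39.0 CPM in glutamate replicates 1 to 5 and at 24.9, 20.6, 27.4, 34.0 and 38.5 CPM in zinc replicates. Pcdh11x stood at 179, 229, 189.7, 168 and 100.2 CPM and at 225, 231, 208, 144 and 145 CPM in the same libraries. Glutamate replicate 5 and zinc replicates 4 and 5 were thus high in Cdh20 and low in Pcdh11x.

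Some of the 12 marker lists deviated with the same genes. Deviations of the summed excitatory markers had a correlation of 0.88 with those of Cdh20 and -0.81 with those of Pcdh11x over the 20 libraries. For the GABAergic markers the values were -0.78 and 0.62, and for the pan-neuronal markers 0.91 and -0.77. For the astrocyte markers they were 0.66 and -0.78, and for the fibroblast and meninges markers 0.78 and -0.78. The other 7 lists had correlations with Cdh20 of -0.48 (Cajal-Retzius markers) to 0.39 (endothelial markers). Each list is a sum of TPM, so its most abundant genes weigh most in these correlations. By median these were Sst (999.6 TPM) among the GABAergic, Tubb3 (2433 TPM) among the pan-neuronal and Reln (210 TPM) among the Cajal-Retzius markers. The values thus need not hold for every gene of a list or for the cell type. The part of these markers in the shared deviations was not tested.

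**Figure D5:**
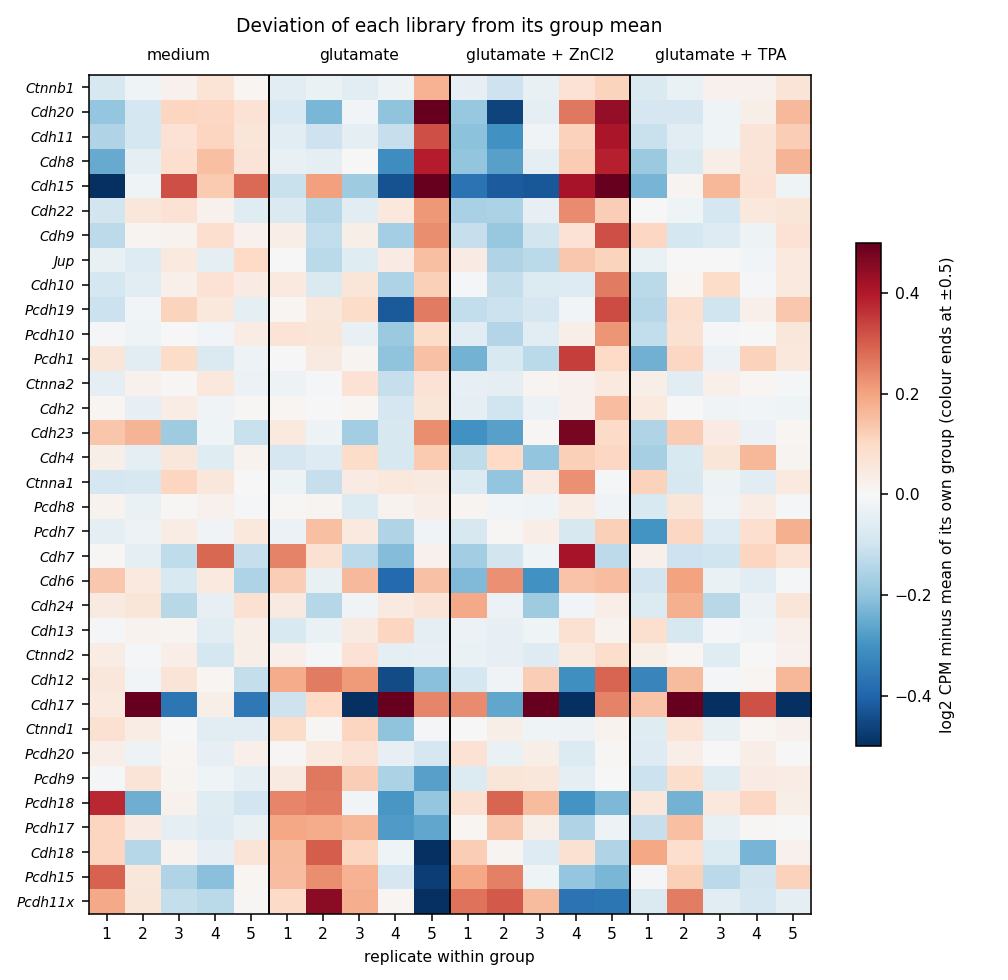
Log2 CPM minus the mean of its own group for the 34 tested genes (rows, ordered by the correlation of their deviations with those of Ctnnb1) in the 20 libraries (columns), with red above and blue below the group mean and colours ending at ±0.5. Cdh20, Cdh11 and Cdh8 near the top and Pcdh11x and Pcdh15 at the foot take opposite colours in glutamate replicate 5 and zinc replicates 2, 4 and 5.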

How the data were processed

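The authors deposited raw counts per gene for 20 libraries, made per the submitters' processing notes with Trimmomatic 0.36, HISAT2 2.1.0, SAMtools 1.3.1 and featureCounts on mm10. For strand, the setting was not given in the sources used here. The authors also deposited TPM, whose values equal the counts over the deposited gene lengths, rescaled per library. In their comparison tables the authors deposited a mean signal, a shrunken log2 fold change with its SE, a Wald score and a p-value with its adjustment, made with DESeq2 1.14.1 in R 3.3.0.

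Counts were fitted with edgeR 4.0.16 (R 4.3.3), using the default expression filter, TMM scaling, 4 group means over all 20 libraries and the robust quasi-likelihood fit. This kept 14411 genes and 99.98% of counts. Adjustment covered all tested genes. A count of 3 was 0.0733 to 0.105 CPM, which covers counting error only. TPM was used for levels between genes.

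The members and lists were chosen with earlier results of these data known. Values per library are given for members past the threshold, the catenins, the 10 highest by TPM (for some as mean and SD) and the 2 smallest p-values of each comparison. Related genes are named only at the smallest p of their list. Cdh7, Cdh8, Cdh9, Cdh10, Cdh11, Cdh12, Cdh15, Cdh17, Cdh18, Cdh20, Cdh22, Pcdh11x and Pcdh15 are named outside this rule. Transcript GC content came from GENCODE M21, for 13880 of the tested genes. The alternatives were DESeq2's size factors, no filter, DESeq2 1.42.0, the replicate number as a block, each library left out, a GC correction (loess, span 0.5) and leaving out 3 libraries, the last pair added after seeing the data.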

Additional observations from a re-analysis of the deposited data

Results flagged for a closer look

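Of 60 groups of 5 libraries tested over the named members, 3 held a library far from the other 4, where chance alone gives about 1 in 20. Cdh6 stood at 4.04 CPM in TPA replicate 2, against 3.28 to 3.49 CPM in the other TPA libraries. Ctnnb1, which encodes β-catenin, stood at 729 CPM in glutamate replicate 5, against 620.4 to 635 CPM in the rest of that group. Pcdh8 stood at 290.0 CPM in glutamate replicate 3, below the 305 to 311 CPM of its group.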

How the results depend on the processing

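In glutamate against medium, 0 members were called in all settings but that without the 3 farthest libraries, which called 1. All genes called there numbered 3, and 5 with DESeq2's size factors, 12 with DESeq2, 100 without the 3 libraries and 2 to 5 with each library left out. In zinc against glutamate 0 genes were called, and 1 with DESeq2, 1 without the 3 libraries and 0 to 3 with each library left out. In TPA against glutamate 0 members were called, and 4 without the 3 libraries. All genes called there numbered 0, and 1 with DESeq2, 551 without the 3 libraries and 0 to 2 with each library left out.

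In TPA against zinc 2 members were called, and 3 with DESeq2 (Jup, Cdh24 and Pcdh8 higher), 0 with the GC correction, 4 without the 3 libraries (Jup, Cdh24 and Cdh15 higher, Pcdh9 lower) and 0 to 3 with each library left out, the third being Cdh7 without zinc replicate 4. All genes called numbered 74 (51 higher, 23 lower). They numbered 41 with no filter (33 and 8), 456 with DESeq2 (294 and 162), 12 with the GC correction (8 and 4), 1149 without the 3 libraries (639 and 510) and 5 (without zinc replicate 3) to 899 (without zinc replicate 4) with each library left out. In zinc against medium 0 members were called, and 1 (Jup, lower) with DESeq2, 1 without the 3 libraries and 0 to 1 with each library left out, the 1 being without zinc replicate 4. All genes called there numbered 6, and 64 with DESeq2, 231 without the 3 libraries and 3 to 100 with each library left out. In TPA against medium 10 genes were called, and 6 to 11 with each library left out.

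Deviations of same-numbered libraries correlated from -0.07 to 0.50 (median 0.06), with 11 of 30 pairs over 0.1 and 9 of 20 libraries closest to their own number. No chance level was computed for these counts, so they do not decide whether the numbers pair samples. The main fit did not use the numbers. With the number as a block, TPA against zinc kept both calls, Jup at 0.31 (edgeR adjusted p = 0.00236) and Cdh24 at 0.38 (edgeR adjusted p = 0.0114). With the number as a block, all genes called numbered 422 in TPA against zinc (239 higher, 183 lower) and 39 in zinc against medium, where the block also called 1 member, Jup, at -0.23 (edgeR adjusted p = 0.0279). The cause of these shifts was not tested. No called fold change reversed in any setting. The 7 untested members had 0 to 13 counts per library.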
